A study of Rattus norvegicus with 20 samples.

Results

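Transcripts of 10 genes whose proteins the liver secretes into plasma were followed in blood RNA of rats, array by array: the carrier proteins Alb, Ttr and Rbp4, the inhibitors Ahsg and Serpina1, the apolipoproteins Apoa1 and Apoa2, and the fibrinogen chains Fga, Fgb and Fgg. All probe sets that the platform's annotation gives exactly 1 gene symbol, equal to one of these names, were taken. This gave 14 probe sets (2 for Alb, 2 for Fga, 3 for Fgb and 1 for each other gene) out of 20826 probe sets with 1 symbol and 31042 in all, and none of the 10 genes was missing. A further probe set that the annotation shares between Ttr and metallothionein genes was left out.

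Albumin carries fatty acids, hormones and drugs in plasma and sets much of its osmotic pressure, transthyretin carries thyroid hormone, and retinol-binding protein, which travels bound to transthyretin, carries vitamin A. Fetuin-A (Ahsg) binds calcium phosphate, α1-antitrypsin (Serpina1) inhibits neutrophil elastase, Apoa1 and Apoa2 are the main proteins of high-density lipoprotein, and the fibrinogen chains form the clot. Hepatocytes make these mRNAs in large amounts. Adipose tissue also makes Rbp4, and in humans monocytes and neutrophils make some SERPINA1.

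The rats were male Wistar rats given 1 oral dose of 1200 mg/kg acetaminophen (APAP), which injures the liver, after a fast of 12 h. From 35 dosed rats, the study took those highest in serum ALT, a liver enzyme that leaks from injured hepatocytes, as the susceptible and those lowest as the resistant sub-group. Arrays held blood of susceptible rats 24 h after APAP (SA) and before it (S), and of resistant rats after (RA) and before (R), with 5 Affymetrix Rat Genome 230 2.0 arrays in each of these 4 groups and 1 array per sample. Red blood cells were lysed before RNA was extracted, and leukocytes, platelets and any remaining erythroid RNA were among the sources. Whether RNA from liver cells was also present in the blood was not tested. The predose sample was drawn 1 week earlier, and a fast before it is not given in the sources used here. The sample labels name the retro-orbital plexus for both bleeds, while the study's methods name the inferior vena cava for the second. The age of the rats is not given in the sources used here. Blood of rats given vehicle was not analysed here, so that APAP, the fast before it, day and any change of bleeding site cannot be told apart in a postdose change, and the sub-groups were themselves defined by the liver injury measured after the dose. The labels do not tie the predose and the postdose array of 1 rat together, and the arrays were treated as separate samples. In whole blood, more cells of a type and more RNA per cell cannot be told apart.

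Signals are linear intensities scaled to a median of 1000 on each array, and tests were made on their log2 values with limma over all probe sets that reached 100 on at least 1 array, with a Benjamini-Hochberg adjusted p under 0.05 as the threshold. All 14 probe sets passed this filter in each comparison. The 3 probe sets of the bacterial trp gene served as a gauge of background, and the highest of them on an array was at 163 to 190.4 on SA, 136 to 237 on S, 34.9 to 245 on RA and 58.4 to 279 on R arrays. Any 2 arrays correlated between 0.920 and 0.942 over all probe sets. RNA integrity was read from the β-actin controls, whose 3′ signal exceeded the 5′ signal by a log2 value of 0.79 ± 0.10 on SA, 0.87 ± 0.05 on S, 0.76 ± 0.10 on RA and 0.80 ± 0.03 on R arrays (SD, n = 5). The defining transcripts of circulating cells were bright on every array, with 1.26e+06 to 2.08e+06 for the summed signal of 9 platelet genes and 571085 to 1.44e+06 for that of 7 neutrophil genes. Erythroid RNA remained after the lysis, with 458807 to 885378 for the summed signal of 6 erythroid genes.

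After APAP, Alb, Rbp4 and Ahsg transcripts were higher in blood of susceptible rats, and no probe set of the 10 genes passed the threshold in resistant rats. Alb was 9.03-fold higher in SA than in S as geometric means of 5 arrays. The S arrays lay at or below the highest trp control on 5 of 5 arrays for Rbp4 and on 4 of 5 for Ahsg. With these S values set to that control and SA kept as measured, Rbp4 was 3.08-fold and Ahsg 4.21-fold higher in SA. For Rbp4, 1 of the 5 SA arrays also lay at or below its control, so that 3.08-fold is not a strict lower bound. Alb, Rbp4 and Ahsg were 3 of the 14 probe sets, all higher, beside 3.86% of all probe sets called higher in this comparison, and the same 3 had SA arrays all above the S arrays, beside 3.93% of all probe sets. The median log2 difference of the 14 was 1.31, against 0.01 over all probe sets, and 11 of the 14 differences were above 0, beside 51.3% of all probe sets. None of the 14 was called lower, beside 2.8%, or had SA arrays all below the S arrays, beside 2.91%. The shift was uneven between arrays, with the largest values on SA1 and SA3. With both of these arrays left out, none of the 3 passed the threshold, and the differences were 1.88 for Alb, 2.80 for Rbp4 and 2.09 for Ahsg (limma adjusted p = 0.172, 0.139 and 0.134). By the methods' t-test, at p under 0.05 with a fold of at least 2, the same 3 of 14 were called, beside 3.29% of all probe sets, and none of them after Benjamini-Hochberg adjustment (adjusted p = 0.204 for Alb, 0.0627 for Rbp4 and 0.0721 for Ahsg).

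**Figure D1:**
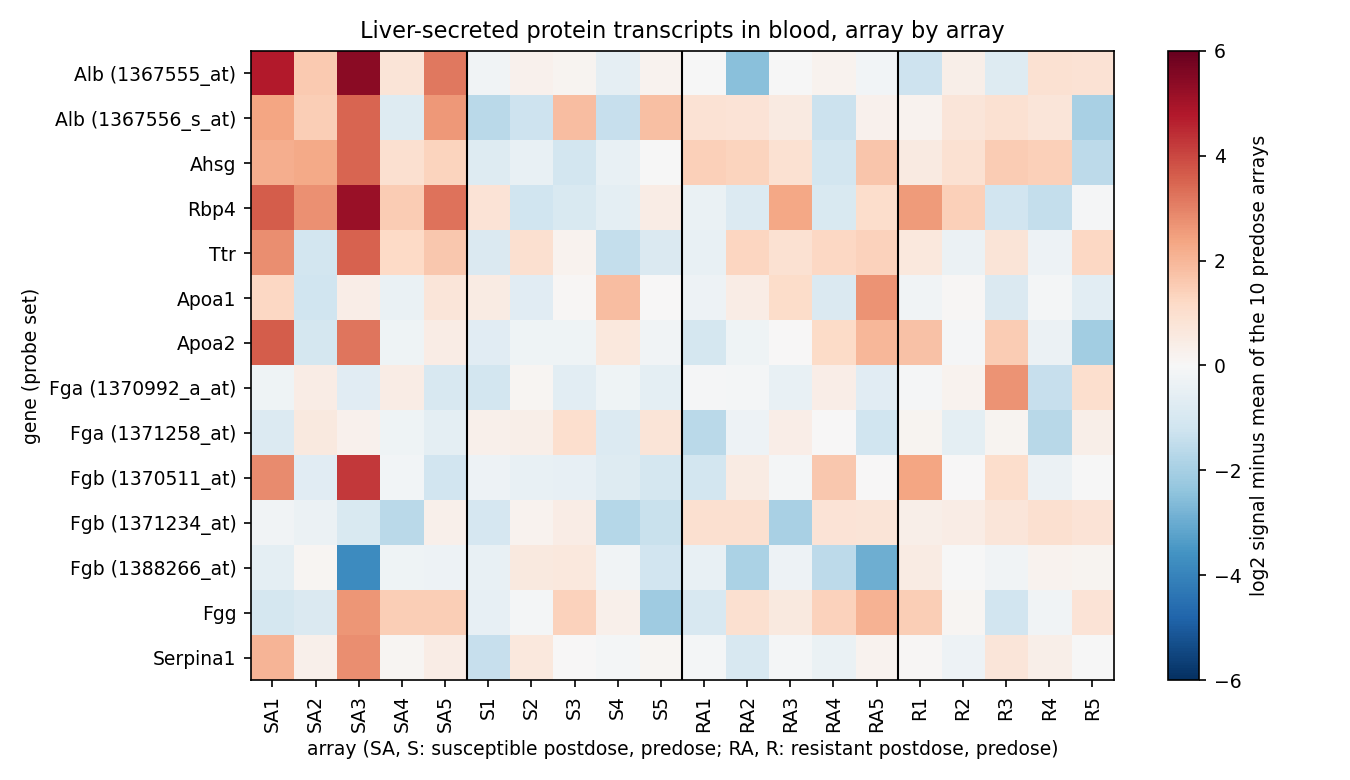
Log2 signal of each of the 14 probe sets (rows) on each of the 20 arrays (columns), less the mean of the 10 predose arrays, with red for higher and blue for lower. Columns SA1 and SA3 are red for Alb, Ahsg, Rbp4, Ttr, Apoa2, Serpina1 and 1 of the 3 Fgb probe sets, with median shifts over the 14 probe sets of 2.12 and 3.0, while the RA columns have no such block.

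Alb was measured by a pair of probe sets that did not move alike. The first, 1367555_at, was at 9731, 1082, 15297, 619 and 3239 on arrays SA1 to SA5, against 308, 423, 400.4, 249.8 and 413 on S1 to S5. It was at 350.0, 62.3, 353, 412 and 321 on RA1 to RA5, against 153, 465, 212, 681 and 646 on R1 to R5. Every SA array lay above every S and RA array, and only SA4, the lowest of them, lay within the range of the R arrays. Relative to the median of the S arrays, the SA arrays were 24.3-fold, 2.70-fold, 38.2-fold, 1.55-fold and 8.09-fold higher, so that the same group held both the smallest and the largest shift. The log2 difference of SA and S was 3.17 (standard error 0.76, 95% confidence interval 1.58 to 4.77, limma adjusted p = 0.0161). It missed the threshold without SA1 (2.77, limma adjusted p = 0.0505) and when only the SA and S arrays were fitted (adjusted p = 0.0784). The group means in log2 were 11.63 ± 1.98 for SA, 8.46 ± 0.33 for S, 7.98 ± 1.13 for RA and 8.52 ± 0.97 for R (SD, n = 5). The order of R, S and RA rests on steps below the SDs of RA and R.

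The other Alb probe set, 1367556_s_at, has a suffix that marks probes shared with further transcripts. It was at 1217, 651, 2627, 135 and 1432 on SA arrays, against 77.3, 99.0, 849, 88.3 and 816 on S arrays. It was at 423, 413, 345, 94.4 and 280.1 on RA arrays, against 268, 381, 436, 384 and 60.6 on R arrays. SA1, SA3 and SA5 were its brightest arrays of the 20, while S3 and S5 overlapped the SA range, and the difference of SA and S (1.95, adjusted p = 0.219) did not pass the threshold.

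Rbp4 had the largest of the 14 differences, and its S arrays lay at background. Rbp4 was at 641, 344, 1880.1, 149 and 493 on SA arrays, against 91.3, 22.1, 27.1, 34.5 and 70.5 on S arrays. It was at 39.2, 28.5, 256, 27.3 and 106 on RA arrays, against 305, 137, 23.3, 19.0 and 49.2 on R arrays. All 5 S arrays lay at or below their own highest trp control, as did 1 of the 5 SA arrays, and no SA array overlapped the S range. The log2 difference was 3.56 (standard error 0.83, 95% confidence interval 1.82 to 5.30, limma adjusted p = 0.0134). This difference is set by S signals at background. The 3.08-fold above sets S to its controls and keeps SA as measured, with SA4 itself at background. RA3, R1 and R2 stood out from the other resistant arrays, so that the resistant groups overlapped on both sides (log2 means of 5.93 ± 1.40 for RA and 5.95 ± 1.70 for R, SD, n = 5).

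Ahsg had SA and S arrays that did not overlap, at 757, 806, 1878, 317 and 422 on SA arrays, against 95.9, 120.1, 77.7, 122 and 162 on S arrays. It was at 449.7, 419, 309.8, 75.8 and 532 on RA arrays, against 238, 309.5, 476, 438 and 55.4 on R arrays. Of the S arrays, S5 alone lay above its own highest trp control, while all 5 SA arrays did. SA3, SA2 and SA1 were the 3 highest of the 20 arrays, while SA4 and SA5 lay inside the range of both resistant groups. The log2 difference of SA and S was 2.62 (standard error 0.61, 95% confidence interval 1.33 to 3.90, limma adjusted p = 0.0136). The group means in log2 were 9.42 ± 0.99 for SA, 6.81 ± 0.40 for S, 8.22 ± 1.14 for RA and 7.93 ± 1.26 for R (SD, n = 5), so that S was the lowest of the 4 measured means, though with 4 of its 5 arrays at background, and RA and R differed by less than their SDs. The predose difference of S and R, -1.12, did not pass the threshold (limma adjusted p = 0.9998).

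**Figure D2:**
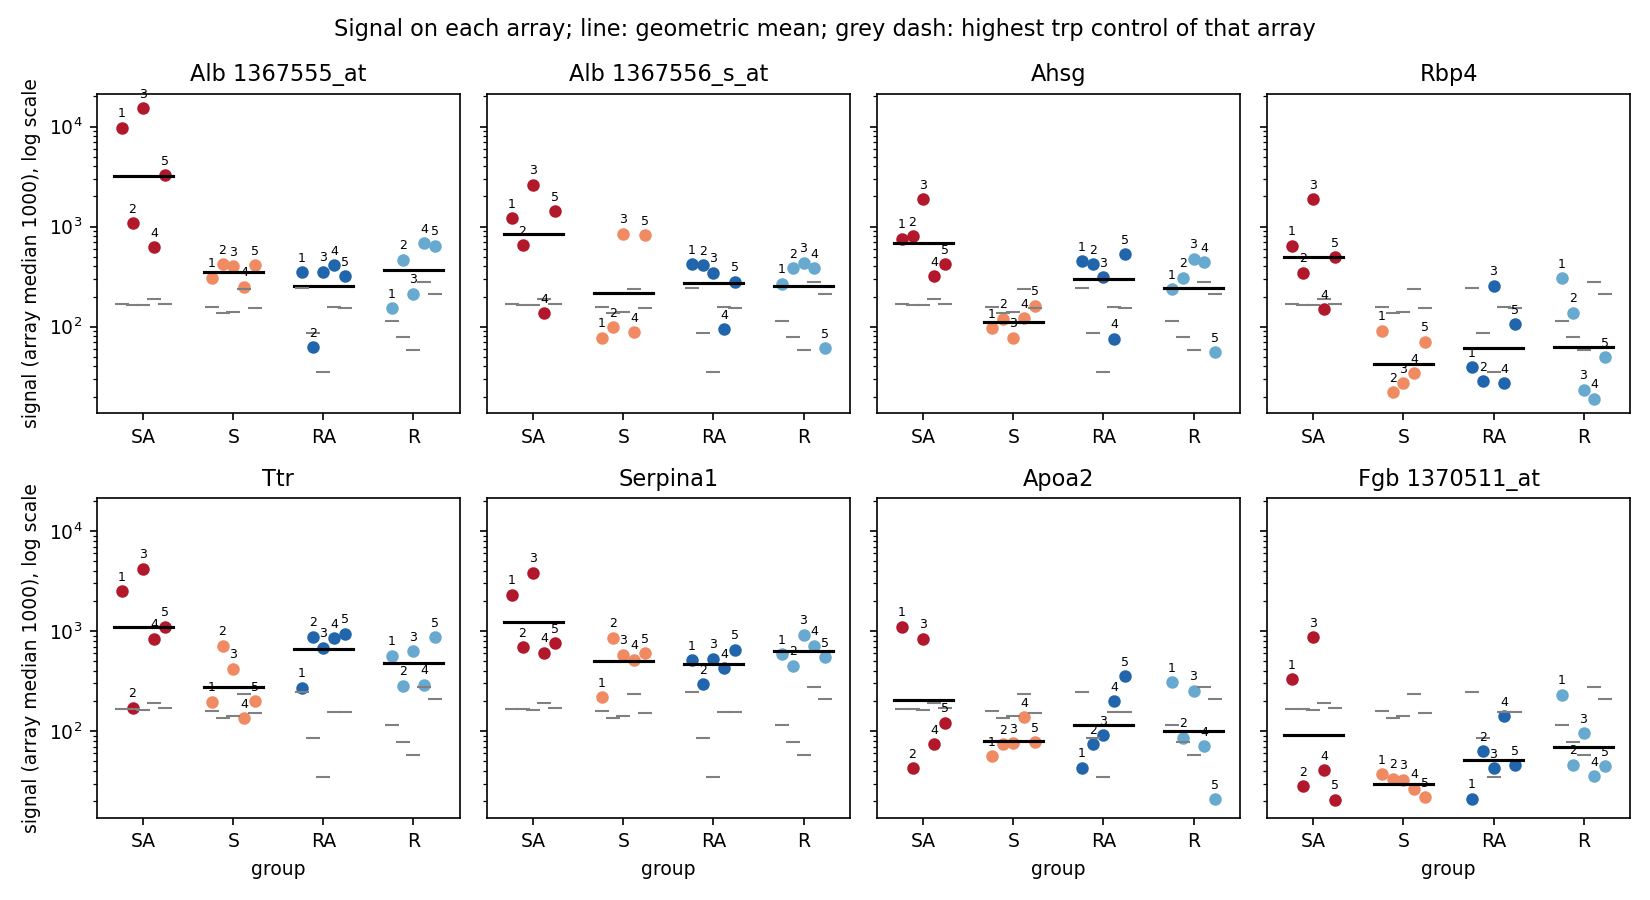
Signal of 8 probe sets on each array (log axis, array median 1000), with 1 point per array numbered by replicate, groups SA, S, RA and R from left to right, a black line for the geometric mean of 5 arrays and a grey dash for the highest trp control of each array. For Alb 1367555_at, Ahsg and Rbp4 all SA points lie above all S points, and for Ttr, Serpina1, Apoa2 and Fgb 1370511_at points 1 and 3 of SA lie above the other 18 arrays.

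The sequence before Alb, Ahsg and Rbp4 is shown because these 3 genes passed the threshold in SA minus S. Windows of 120 bases upstream of the annotated gene were read from RefSeq promoters of the rat build GRCr8, all 3 on the minus strand and written 5′ to 3′, at chr14:17907044-17907163 for Alb, chr11:91632634-91632753 for Ahsg and chr1:245313587-245313706 for Rbp4. Capitals mark matches on either strand to GTTAAT, the core of sites bound by the liver factor HNF1, to TTGCNNAA, a site of the C/EBP type, or to TATAAA, the TATA box.
Alb: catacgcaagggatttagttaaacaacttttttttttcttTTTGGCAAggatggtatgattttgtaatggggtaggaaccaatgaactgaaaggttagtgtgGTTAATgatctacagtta
Ahsg: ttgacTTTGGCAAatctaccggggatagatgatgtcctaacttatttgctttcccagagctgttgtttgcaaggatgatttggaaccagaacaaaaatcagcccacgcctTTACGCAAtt
Rbp4: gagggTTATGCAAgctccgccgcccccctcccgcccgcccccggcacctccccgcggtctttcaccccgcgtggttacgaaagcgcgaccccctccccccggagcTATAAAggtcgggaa
In the 250 upstream bases, TTGCNNAA was found before 5 of the 8 member genes that the promoter table holds (Alb, Ahsg, Rbp4, Fga and Fgb) and before 9.22% of 33469 promoters. GTTAAT was found before 3 of the 8 (Alb, Fga and Fgb) and 6.45% of promoters, and TATAAA before 2 (Rbp4 and Fgg) and 12.9%. Fga and Fgb hold matches to the same motifs as Alb, and neither passed the threshold in any of the 5 comparisons. The 3 motifs were chosen after the windows had been read, they do not overlap one another in the sequences shown, and a match is a run of letters and no measured site.

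Transthyretin, the carrier that Rbp4 binds in plasma, was higher on SA1 and SA3 and not evenly on the others. Ttr was at 2496, 171, 4191, 838 and 1103 on SA arrays, against 198, 715, 421, 134 and 201 on S arrays. It was at 272, 883, 680.5, 855 and 945 on RA arrays, against 566, 286, 629, 291 and 875 on R arrays. SA2 lay below 4 of the 5 S arrays and the other SA arrays above all of them, and the log2 difference of 2.0 (95% confidence interval 0.56 to 3.45) had an adjusted p of 0.0978. With 1 array left out at a time, the difference ranged from 1.52 to 2.68 (limma adjusted p = 0.00867 to 0.246). The value of 2.68 was that without SA2 (adjusted p = 0.00867).

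Serpina1 showed the same pair of high arrays above predose arrays of narrower range. It was at 2312, 690.2, 3844, 608 and 760.3 on SA arrays, against 218, 861, 580.4, 516 and 605 on S arrays. It was at 516, 294, 528, 425 and 650.3 on RA arrays, against 585, 453, 923, 718 and 549 on R arrays. SA2, SA4 and SA5 lay within the range of the predose arrays, and the log2 difference of SA and S was 1.28 (95% confidence interval 0.30 to 2.25, adjusted p = 0.121). Serpina1 was above the highest trp control on all 20 arrays, and RA and R, at 8.87 ± 0.43 and 9.29 ± 0.39 in log2 (SD, n = 5), had the smallest SDs of its 4 groups.

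The apolipoproteins of high-density lipoprotein did not move alike. Apoa2 was at 1111, 42.9, 844, 74.6 and 121 on SA arrays, against 56.6, 74.4, 75.5, 138 and 77.4 on S arrays. Its resistant arrays spread from 43.4 to 353 (RA) and from 21.0 to 308 (R). SA1 and SA3 were again the highest of 20, SA4 and SA5 lay among the S arrays and SA2 below them, and the log2 difference of 1.35 had an adjusted p of 0.460. Apoa1 was at 18.8 to 100.4 on SA, 26.9 to 154 on S, 23.4 to 281 on RA and 23.7 to 45.4 on R arrays, and above the highest trp control on 2 of the 20 arrays, so that no level above background was measured for it on the other 18.

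The fibrinogen chains, which rise with inflammation in rat liver, gave no call by limma as run on all arrays, and the 3 probe sets of Fgb disagreed. Fgb 1370511_at was at 329, 28.1, 864, 41.0 and 20.7 on SA arrays, against 37.2, 33.4, 32.6, 26.7 and 21.9 on S arrays, so that SA1 and SA3 lay above all other arrays. All 5 S arrays and the other 3 SA arrays lay at or below their highest trp control. The log2 difference was 1.63 (limma adjusted p = 0.323), and it passed the threshold with signals floored at each array's median trp control (2.07, adjusted p = 0.0445). That floor was at 69.0 to 161 on SA and 12.9 to 92.2 on S arrays, so that the floored difference partly reflects the controls. Fgb 1388266_at went the other way on SA3, at 177, 281, 19.2, 222 and 213 on SA arrays, against 189, 395, 407, 223 and 117 on S arrays. In resistant rats the same probe set was at 195, 69.7, 214, 88.6 and 34.7 on RA arrays, against 363, 258, 228, 305 and 293 on R arrays. These groups did not overlap, RA being lower, beside 3.53% of all probe sets, but the log2 difference of -1.55 had an adjusted p of 0.201. Fgb 1371234_at was at 54.6 to 206 on SA, 51.4 to 225 on S, 43.3 to 326 on RA and 214 to 321 on R arrays.

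Fgg was at 56.6, 64.0, 739, 325 and 324 on SA arrays, against 83.3, 109, 303, 146 and 27.1 on S arrays, with SA3 the highest of the 20 arrays (log2 difference 0.94, adjusted p = 0.579). Fga 1371258_at was at 162 to 429 on SA, 163 to 568 on S, 94.0 to 380.3 on RA and 89.2 to 366 on R arrays, and its other probe set was above the highest trp control on 1 array of 20. In the RefSeq annotation Fgg, Fga and Fgb are direct neighbours, and their 6 probe sets had log2 differences of SA and S between -0.83 and 1.63.

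**Figure D3:**
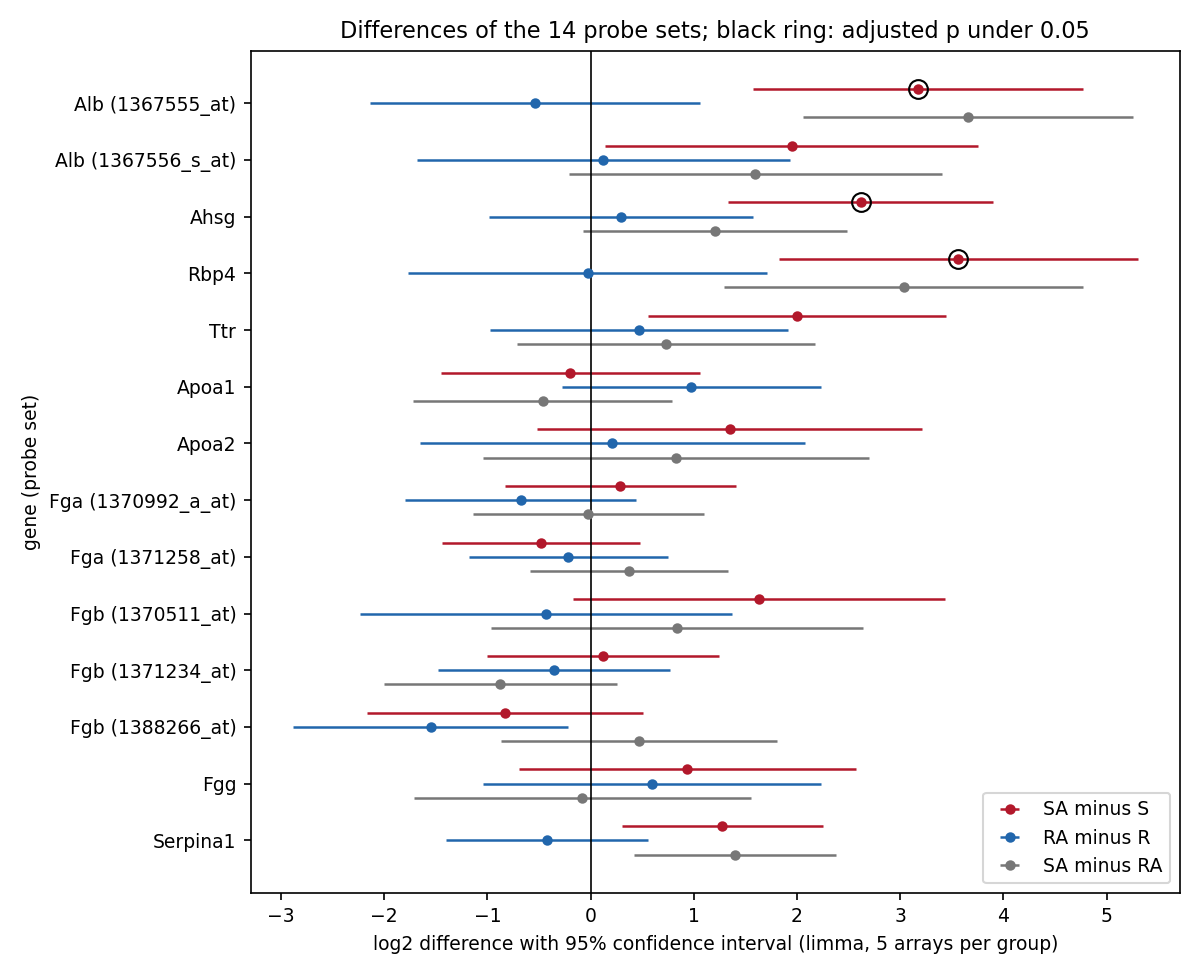
Log2 difference of each probe set with its 95% confidence interval (limma, 5 arrays per group), for SA minus S, RA minus R and SA minus RA from top to bottom in each row, with a black ring at an adjusted p under 0.05. The rings mark Alb 1367555_at (3.17), Ahsg (2.62) and Rbp4 (3.56) in SA minus S, and the interval of Alb 1367555_at in SA minus RA runs from 2.06 to 5.25.

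In resistant rats 0 of the 14 probe sets passed the limma threshold between RA and R, where 5.11% of all probe sets did. At an unadjusted p under 0.05 the count was 1 of 14, beside 17.1% of all probe sets, and the methods' t-test called 1 of 14 (Fgb 1388266_at, lower), beside 3.1%. None had RA arrays all above the R arrays, beside 3.24%. The median difference of the 14 was -0.12, and 6 of them were above 0, beside 49.1% of all probe sets. The intervals remained wide, with -2.14 to 1.06 for Alb 1367555_at, -0.99 to 1.58 for Ahsg and -1.77 to 1.71 for Rbp4 on the log2 scale. Rises up to these upper bounds are not excluded.

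Directly compared at 24 h, SA and RA differed most for Alb. The Alb probe set 1367555_at had a log2 difference of 3.66 (standard error 0.76, limma adjusted p = 0.0666), with rank 6 in size among the higher differences of all probe sets, and was the 1 of 14 probe sets whose SA arrays all lay above the RA arrays, beside 1.56% of all probe sets, while none had SA arrays all below them, beside 0.673%. Rbp4 followed with 3.03 (adjusted p = 0.174), the other Alb probe set with 1.60 (adjusted p = 0.606) and Serpina1 with 1.40 (adjusted p = 0.300). None of the 14 passed the threshold, where 0.143% of all probe sets did, and 3 of 14 had an unadjusted p under 0.05, beside 9.18%. By the methods' t-test the count was 2 of 14 (Alb and Rbp4), beside 1.82%. With 1 array left out at a time, the Alb difference ranged from 3.09 to 4.25 (limma adjusted p = 0.0205 to 0.207). It was 4.25 without SA4, the SA array of lowest Alb signal (adjusted p = 0.0205), and 4.04 without SA2 (adjusted p = 0.0479).

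The test of whether the postdose change differed between the sub-groups, an interaction term, gave 0 of the 14 probe sets at the threshold, and 0% of all probe sets. The estimates were 3.72 for Alb 1367555_at (standard error 1.07, limma adjusted p = 0.432), 3.59 for Rbp4 (1.17, adjusted p = 0.487), 2.32 for Ahsg (0.86, adjusted p = 0.569) and 1.70 for Serpina1 (0.66, adjusted p = 0.597). These 4 of the 14 had an unadjusted p under 0.05, beside 6.9% of all probe sets. That a transcript passed the threshold in susceptible and not in resistant rats therefore does not show that the changes differ.

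Before dosing, 0 of the 14 probe sets differed between S and R by limma, where 0.00329% of all probe sets did, and 2 of 14 had an unadjusted p under 0.05, beside 3.74%. Both were Fgb probe sets lower in S, 1371234_at by -1.35 and 1370511_at by -1.22 (limma adjusted p = 0.9998 for each). The methods' t-test called the first of them, 1 of 14, beside 1.22% of all probe sets. No probe set of the 10 genes had S and R arrays that did not overlap, which 0.243% of all probe sets did with S higher and 0.286% with S lower.

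The unevenness within the susceptible postdose group was common to several of the genes. SA1 and SA3 were the 2 highest of the 20 arrays for 6 of the 14 probe sets (42.9%: Alb 1367555_at, Rbp4, Ttr, Serpina1, Apoa2 and Fgb 1370511_at), beside 4.28% of all probe sets, and SA3 was the highest for 8 of 14, beside 7.48%. Of the 14 probe sets, 8 on SA1, 9 on SA3, 4 on SA5, 3 on SA2 and 0 on SA4 lay above all 10 predose arrays, against 5 on RA5, 1 on RA1, 1 on RA2 and 0 on RA3 and RA4. Over all probe sets these shares were 17.7% on SA1, 16.6% on SA3, 13.9% on SA5, 12.4% on SA2 and 18.3% on SA4, against 15.4% on RA5 and 11.1% to 17.7% on the other RA arrays. The arrays SA1 and SA3 were picked out by these same signals, so that this is a description of the arrays. For the 8 probe sets above all predose arrays on both, SA3 exceeded SA1 in 7, and the excess over the S median on SA3 was 0.742 times (Apoa2) to 3.04 times (Rbp4) that on SA1. Among these 8, the median Pearson correlation of log2 signals over 28 pairs was 0.56 over the 20 arrays and 0.11 over the 15 arrays outside the SA group, where arrays share their scaling and the pairs share probe sets. These 8 were chosen by their signals on SA1 and SA3, which the 20 arrays include, and over all 91 pairs of the 14 probe sets the median was 0.12.

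Other hepatocyte transcripts were looked at for the same arrays. Of 38 further secreted liver proteins tested, 3 were higher in SA than in S (Fetub, Hrg and Hp), beside 3.86% of all probe sets. None was lower, beside 2.8%, and the median difference was 0.44. In resistant rats 4 of the 38 were higher in RA than in R, beside 2.51% of all probe sets. Hp, haptoglobin, which binds free haemoglobin and is also stored in neutrophil granules in humans, was at 49336, 37351, 85426, 44058 and 46031 on SA arrays, against 31786, 30129, 21485, 23341 and 20768 on S arrays (log2 difference 1.0, adjusted p = 0.0183). Apom, a lipoprotein component and the third of highest mean signal beside Hp and Fetub, had a log2 difference of -0.055 (adjusted p = 0.941). Of 26 enzymes and other intracellular hepatocyte genes tested, 0 passed the limma threshold in either direction and 2 were higher at an unadjusted p under 0.05, with a median difference of 0.19. The 3 of highest mean signal were Hsd17b13, Mat1a and Cyp2e1. Hsd17b13, an enzyme of hepatocyte lipid droplets, was at 1344, 1108, 1109, 1363 and 910 on SA arrays, against 697 to 1461 on S arrays (log2 difference 0.24, adjusted p = 0.575), with no rise on SA1 and SA3. Mat1a, which makes S-adenosylmethionine, was at 1086, 813, 1469, 438 and 752 on SA arrays, against 298 to 620 on S arrays (0.76, adjusted p = 0.255). Cyp2e1, the cytochrome that turns APAP into its toxic product, was at 1606, 411, 2359.5, 521 and 725 on SA arrays, against 377, 421, 785, 382 and 705 on S arrays (log2 difference 0.83, adjusted p = 0.416). SA1 and SA3 were the 2 highest of 20 for 5 of 38 genes of the secreted list (13.2%) and 4 of 26 of the enzyme list (15.4%), beside 4.28% of all probe sets. Mat1a and Cyp2e1 were among these 4, and Hsd17b13 was not.

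**Figure D4:**
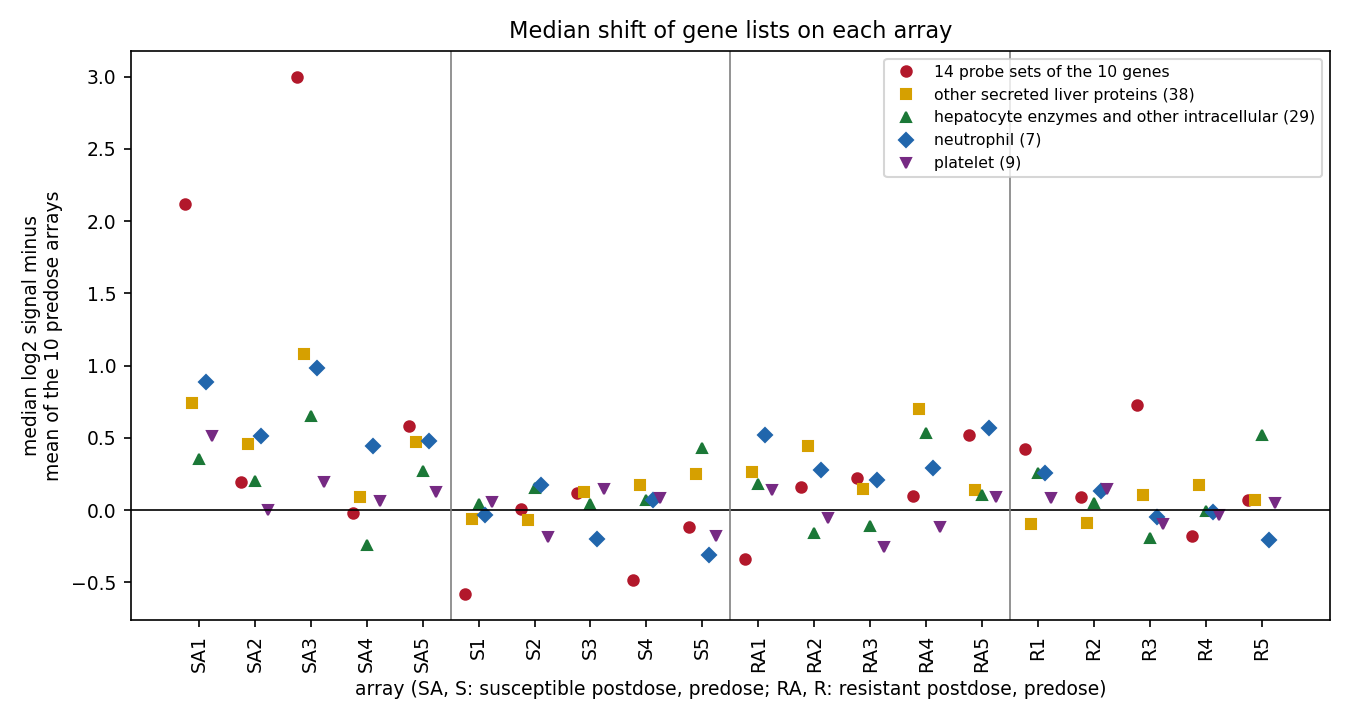
Median log2 shift from the mean of the 10 predose arrays, on each array, for the 14 probe sets of the 10 genes and for 4 lists of other genes (number of genes in the key). The 14 probe sets reach 2.12 on SA1 and 3.0 on SA3, the other secreted liver proteins 0.739 and 1.08, the hepatocyte enzymes 0.354 and 0.654, and the neutrophil genes 0.886 and 0.983.

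Ahsg lies in the RefSeq annotation beside Fetub, and Fetub beside Hrg. Both Fetub and Hrg were among the 3 other secreted proteins called higher in SA than in S. Fetub, fetuin-B, a protease inhibitor related to fetuin-A, was at 3889 to 10419 on SA arrays and 112 to 2074 on S arrays, and at 5194 to 8609 on RA arrays and 290.1 to 1007 on R arrays, with log2 differences of 3.71 in susceptible and 3.69 in resistant rats (limma adjusted p = 0.000454 and 0.000595). Ahsg had 2.62 and 0.29. Hrg, histidine-rich glycoprotein, was at 848, 399.9, 1156, 384 and 1198 on SA arrays, against 84.0, 159, 393, 80.6 and 413 on S arrays (2.0, adjusted p = 0.0134), and its R arrays, at 425 to 709.6, lay above all S arrays. Apoa1 is followed in the annotation by Apoc3, Apoa4 and Apoa5, and none of these passed the threshold in SA minus S. Apoc3 was at 2695 and 1935 on SA1 and SA3, above all 18 other arrays, while Apoa4 was at 106 and 67.2 and Apoa5 at 92.3 and 72.7 on the same arrays, and neither these nor Apoa1 stood out there.

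Markers of circulating cells also moved on the SA arrays. Of 7 neutrophil genes, 4 (S100a9, S100a8, Csf3r and Cxcr2) were higher in SA than in S, and 3 of these (S100a8, Csf3r and Cxcr2) were also higher in RA than in R, with log2 differences of 0.78, 1.73 and 2.21 in susceptible and 0.73, 1.5 and 1.48 in resistant rats. The median shift of the neutrophil list was largest on SA3 (0.983) and SA1 (0.886) of all arrays. Of 9 platelet genes, 1 (Selp, P-selectin) was higher. All 9 lay above every predose array on SA1, against 4 on SA3, 3 on each of SA4 and SA5, and 1 on SA2. On RA arrays 1 (RA5) to 4 (RA1) did. Over all probe sets the shares were 12.4% to 18.3% on SA and 11.1% to 17.7% on RA arrays. Of 6 adipose genes tested, 1 (Cfd, adipsin) was higher in SA than in S and in RA than in R. Adipoq, adiponectin, did not pass, at 1.65 in SA minus S (limma adjusted p = 0.0958) and 0.26 in RA minus R (adjusted p = 0.885). Plin4 was at -0.105 in SA minus S (adjusted p = 0.965). The median shift of the adipose list was 1.16, 1.05, 0.894, -0.234 and 1.04 on SA1 to SA5, against -0.211 to 0.997 on S and -0.724 to 0.722 on RA arrays. Of 6 erythroid genes, 0 passed the limma threshold, and 1 was lower at an unadjusted p under 0.05. The part of these cells in the signals of the 10 genes was not tested.

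The genes whose log2 signal followed that of each member most closely over the 20 arrays were found by Pearson correlation among 20658 probe sets with 1 symbol, for the 8 member genes with a mean above that of the trp controls, which leaves out Rbp4 and Apoa1. For Alb 1367555_at these were Tspan2 (0.90), Ubd (0.87) and Cxcl2 (0.86), and for Serpina1 Tspan2 (0.87), Hspa1a (0.83) and Gc (0.83), the vitamin D-binding protein of the liver. For Ahsg they were Rtfdc1 (0.89), Sdf4 (0.87) and Sri (0.86), and for Ttr Senp2 (0.84), Numb (0.81) and Crispld2 (0.79). Apoa2 had Fgb 1370511_at (0.79), Pbxip1 (0.78) and Ptp4a1 (0.76). Fga 1371258_at had Kng2l1 (0.81), Creg2 (0.76) and Gbf1 (0.72), Fgb 1388266_at had Bckdha (0.84), Kdm8 (0.81) and Rcan3 (0.78), and Fgg had Ifng (0.74), Itga8 (0.74) and Prodh2 (0.72). These values come from 20 arrays in 4 groups and are the highest of many, and another member stood among the nearest 3 only for Apoa2.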

How the data were processed

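The 20 arrays (Affymetrix Rat Genome 230 2.0) held RNA of lysed rat blood. The authors deposited 1 linear intensity per probe set and array; the software behind it is not given in the sources used here, and array medians were 187 to 223. As the methods state, arrays were scaled to a median of 1000 (57 control probe sets left out). The predose comparison kept the 30416 probe sets that reached 100 on a predose array, which is the methods' filter; the other comparisons left out those under 100 on all 20 arrays (30747 remained). No slide or scan date was used, and the number of arrays limits the precision.

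Log2 values were fitted with limma 3.58.1 in R 4.3.3 (lmFit, eBayes) on all 20 arrays, or the 10 predose arrays for the predose comparison, with Benjamini-Hochberg adjustment over all probe sets, and the fit was tested on simulated data. The p-values measure the spread between arrays. Plots were made in Python 3.11.15 with matplotlib 3.10.9.

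Genes, lists and motifs were chosen with earlier results of these data known. The naming rule took all 14 probe sets, list genes past the threshold or among the 3 of highest mean signal, and the 3 genes most like each member above the trp controls; blood cell genes it took are mostly given as counts; Fetub, Hrg and Apoc3 values were also given for their place beside a member, chosen after they were seen. The lists covered other secreted liver proteins, hepatocyte enzymes, acute-phase, adipose, platelet, erythroid, neutrophil, monocyte, T cell, B cell and natural killer cell genes, with 1 probe set per gene. Alternatives were quantile normalization, unscaled values, no or a stricter filter, a floor at the median trp control, an offset of 100, 1 probe set per gene, a replicate block, the methods' t-test (Welch's), only the groups compared (all 20 arrays for the predose comparison) and leaving out each array; leaving out SA1 and SA3 together was added after seeing the data.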

Additional observations from a re-analysis of the deposited data

Results flagged for a closer look

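In 7 of 56 sets of 5 arrays (14 probe sets in 4 groups), 1 array lay apart from the other 4 by more than 0.71 of the group's range in log2; chance gives about 1 in 20. All 7 were low arrays, and 5 of them were RA arrays. Alb 1367555_at was at 62.3 on RA2, against 321 to 412 on the other RA arrays (0.868 of the range), and Alb 1367556_s_at at 94.4 on RA4 (0.725) and at 60.6 on R5 (0.754). Ahsg was at 75.8 on RA4, against 309.8 to 532 on the others (0.723), so that RA4 was low for both Ahsg and the second Alb probe set while Alb 1367555_at was at 412 there, its highest RA value. Ttr was at 272 on RA1 (0.736). Fgb 1371234_at was at 43.3 on RA3, against 285 to 326 on the others (0.933), and Fgb 1388266_at at 19.2 on SA3, against 177 to 281 on the others (0.828), on the array where Fgb 1370511_at was at its highest. The 2 high arrays of the susceptible postdose group, SA1 and SA3, met this limit as high arrays for none of the 14 probe sets, since a pair of high arrays leaves no single gap.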

How the results depend on the processing

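For SA minus S, 3 of 14 probe sets were called, and 1 (Alb) with the replicate number as a block, 0 with the methods' t-test after adjustment, 0 without SA1 and SA3 together, and 2 to 4 without 1 array. The count was 4 under the stricter filter (Ttr gained) and with the floor (Fgb 1370511_at gained), and 2 with only the SA and S arrays fitted (Alb lost). The stricter filter asked for a signal of 1000 on at least 1 array, and it kept 7 of the 14 probe sets. These reached 1000 on SA arrays only, so that calls under this filter, here and in SA minus RA, come from probe sets kept for being high in SA. The labels give the groups the same replicate numbers but tie no number to a rat, and same-numbered arrays deviated together with correlations of only -0.03 to 0.05, so that the block pairs arrays that share a number alone. With this block, Ahsg had an adjusted p of 0.0840 and Rbp4 of 0.0582, and the counts of the other comparisons stayed at 0. For SA minus RA, 0 became 1 (Alb) under the stricter filter, with the offset of 100 or with 1 probe set per gene, 2 with the methods' t-test, and 0 to 1 without 1 array. For RA minus R, 0 became 1 with the floor (Apoa1) and 1 with the methods' t-test, which also called 1 for S minus R. The interaction gave 0 under each alternative run. The stricter filter left none of the 14 probe sets predose.

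The differences that turned in sign were of probe sets not called in that comparison. Without SA1 and SA3, SA minus S was -0.14 for Apoa2 and -0.052 for Fgb 1370511_at. With the floor it was 0.99 for Apoa1, and RA minus R was 0.67 for Rbp4. Leaving out 1 array gave -0.46 to 0.18 for Apoa1 and -0.13 to 0.40 for Fgb 1371234_at in SA minus S, -0.55 to 0.55 for Rbp4 and -0.24 to 0.79 for Ahsg in RA minus R, and -0.38 to 0.16 for Alb 1367555_at and -0.98 to 0.019 for Rbp4 in S minus R. Over all alternatives, 638 single probe set results kept their direction and side of the threshold, 20 turned in sign, 12 gained the threshold and 10 lost it. The 638 include results that were not called and stayed so. The losses were in SA minus S, with 4 of 22 alternatives for Alb 1367555_at, 3 of 22 for Ahsg and 3 of 22 for Rbp4. The floor, each array's median trp control, had a mean of 137 on SA, 51.6 on S, 99.1 on RA and 46.9 on R arrays. Floored differences of signals at background, such as those of Apoa1, therefore partly reflect the controls. The floor moved the median of all probe sets to 0.10 in SA minus S. With 5 arrays per group and signals near the trp controls for Apoa1, Rbp4 and the fibrinogen chains, small differences could not be resolved.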

Other observations

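The remaining lists gave these counts. Of 10 acute-phase genes, Hp was higher in SA than in S, with a median difference of 0.30 over the list, while Il1rn (0.72, adjusted p = 0.236) and Lbp (0.45, adjusted p = 0.314), its next brightest, did not pass, and 1 (Cp, ceruloplasmin) was higher in RA than in R. Among the 38 other secreted liver proteins, 4 were higher in RA than in R (C4bpa 2.10, Cp 1.88, F12 1.79 and Fetub 3.69), beside 2.51% of all probe sets. All 8 natural killer cell genes were higher after APAP in both sub-groups, with median differences of 1.13 in susceptible and 1.21 in resistant rats. In susceptible rats 3 of 7 monocyte, 2 of 4 B cell and 1 of 10 T cell genes were lower, beside 2.8% of all probe sets. With SA1 and SA3 left out, 1 of the 38 other secreted proteins and 0 of the 26 hepatocyte enzymes were higher in SA than in S. In the same fit 3 of 7 neutrophil and 8 of 8 natural killer cell genes were higher, and 730 of all 30704 probe sets were called in either direction. The probe set that the annotation shares between Ttr and metallothionein genes was at 14854 and 14967 on SA1 and SA3, at 5687 to 8592 on the other SA arrays and at 6034 to 12980 on the predose arrays.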
